A study of Danio rerio with 2 samples.

Results

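The histone genes of the shield-stage zebrafish embryo are described here, in single cells of wild-type and *MZwnt11f2/slb* embryos. They were chosen by gene symbol alone: all symbols of the deposited gene list that begin as histone symbols do (hist and a digit, h1m, h1-, h1f, h2a, h2b, h3f, h3- or h4). The rule found 56 of 27597 identifiers, and 53 of them had at least 50 counts of unique molecular identifiers (UMIs, 1 per captured RNA molecule) over both libraries. Of these, 41 are named as replication-type histones and 12 as variants. The 3 identifiers left out, all named *hist1h4l*, had 13, 14 and 32 UMIs, and the members just inside the minimum had 73, 75 and 87. The genes *histh1l*, *macroh2a1* and *macroh2a2* are histones by name but are not covered by the rule and are not members.

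Histones package DNA. A pair each of H2A, H2B, H3 and H4 forms the nucleosome core, and the linker histone H1 binds the DNA between cores. Replication-type histones are made in bulk while DNA is copied, from clustered genes without introns whose mRNAs end in a stem-loop in place of a poly(A) tail. Variants such as H3.3 and H2A.Z come from genes with polyadenylated mRNAs and can be deposited outside S phase. The early zebrafish embryo starts from histones and histone mRNAs that the mother laid down in the egg. Libraries such as these are primed at poly(A), so mRNAs without a tail may be captured less than those with one. What this does to the levels and shares below was not tested.

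One library was made per genotype from whole embryos at shield stage, the onset of gastrulation. Wild type is the A2B2 strain. *MZwnt11f2/slb* embryos carry the *tx226* allele and lack both the maternal and the zygotic product of *wnt11f2* (*slb*, silberblick), a non-canonical Wnt ligand needed for gastrulation movements. Embryos of both genotypes were fixed during dissociation with acetic acid and methanol (ACME). The number of embryos pooled per library is not stated. The wild-type library held 8862 cells, 37370253 UMIs and a median of 3874 UMIs per cell, and the *MZwnt11f2/slb* library 7911 cells, 40025626 UMIs and a median of 4595. The libraries shared 16 cell barcodes. *wnt11f2* had 3710 UMIs in wild-type cells and 1659 in *MZwnt11f2/slb*, a count at the 3′ end that does not check the mutation itself. With 1 library per genotype, differences between genotypes and between libraries cannot be told apart, there is no replicate spread, and no test was run. Intervals are 95% and cover counting error only.

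Of the histone UMIs captured, nearly all came from variants. The 53 members took 599421 UMIs in wild type, 1.60% of the library, and 776804 UMIs in *MZwnt11f2/slb*, 1.94%. The 12 variants held 580411 and 758953 of these UMIs, and the 41 replication-type members 19010 and 17851. The replication-type share of histone UMIs was thus 3.17% in wild type (3.13 to 3.22, exact binomial) and 2.30% in *MZwnt11f2/slb* (2.27 to 2.33). The split follows deposited gene names: with *h2ax* and *h2ax1*, the H2A.X genes by those names, counted as replication-type, the share was 5.82% and 5.94%. An identifier deposited as *hist1h2a11* (ENSDARG00000086552, 308 and 311 UMIs) is called *h2ax2* in a newer name table and was kept as replication-type. Levels below are UMIs per 1000000 UMIs of the library or class (CPM). UMI counts of 3′ ends do not grow with transcript length, so levels of different genes can be set side by side as RNA molecules captured. Capture itself may differ between genes.

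H3.3, the H3 variant deposited independently of replication, made up 65.6% of histone UMIs in wild-type cells and 68.2% in *MZwnt11f2/slb*. Most of it came from one identifier labelled *h3f3b.1* (ENSDARG00000020504), at 8889 CPM in wild-type cells and 11598 CPM in *MZwnt11f2/slb*. The newer name table calls it *h3f3a*. It was seen in 99.95% and 99.99% of cells. *h3f3d* followed at 1286 and 1267 CPM, the other identifier labelled *h3f3b.1* (ENSDARG00000068434) at 202 and 214 CPM, and *h3f3c* at 142 and 152 CPM. The leading H3.3 gene therefore stood well above the other 3, and the order of the 4 was the same in both libraries.

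H2A.Z, the H2A variant found at promoters and regulatory elements, held 26.1% of histone UMIs in wild-type cells and 23.3% in *MZwnt11f2/slb*. *h2az2b* was at 2907 and 3359 CPM and *h2az2a* at 1283 and 1166 CPM. H2A.X, the H2A variant phosphorylated at DNA breaks, was carried by *h2ax1* at 331 and 457 CPM and by *h2ax* at 93.3 and 251 CPM. The linker histone of oocytes and early embryos, *h1m*, was at 236 and 328 CPM. The H2A gene *h2af1al* was at 141 and 159 CPM. *h1-10*, another linker histone, was at 7.23 and 3.87 CPM, far below *h1m* in both libraries.

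**Figure D1:**
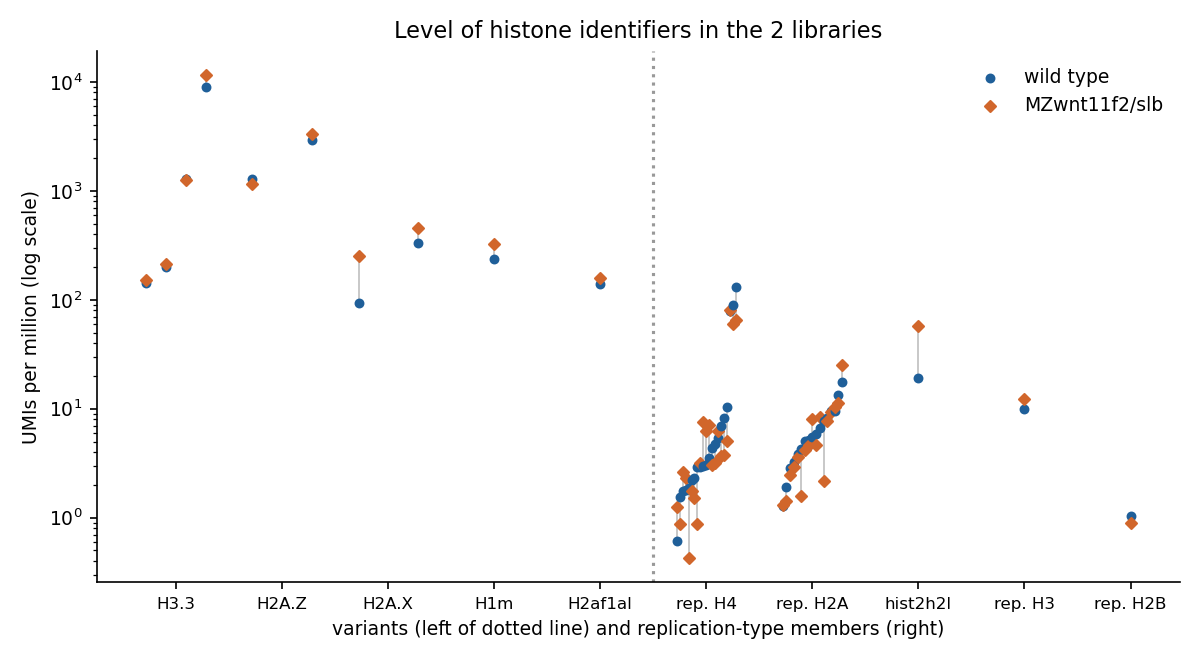
Level of the core histone identifiers and *h1m* in CPM (log axis), with wild type as circles and *MZwnt11f2/slb* as diamonds joined by a line; variants lie left of the dotted line and replication-type (rep.) members right of it. The leading H3.3 identifier stands at 8889 and 11598 CPM, and 3 replication-type H4 identifiers between 60.3 and 130 CPM are above every other replication-type member.

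Among replication-type members, H4 was the most abundant family. The 21 *hist1h4l* identifiers kept summed to 367 CPM in wild-type cells and 266 CPM in *MZwnt11f2/slb*. Reads of near-identical copies may be lost or split between identifiers, so the level of a single copy is uncertain. A split between the copies leaves their sum unchanged, but lost reads are missing from the sum too. Such loss was not tested. The 3 largest copies (ENSDARG00000115281, ENSDARG00000111165 and ENSDARG00000105409) held 79.7% of these UMIs over both libraries, and each of the other 18 had 593 UMIs or fewer. The 17 H2A identifiers summed to 111 and 109 CPM and were spread more evenly, with 39.7% in the 3 largest and single totals from 100 to 1667 UMIs. *hist2h2l*, whose symbol gives no family beyond H2, was at 19.2 and 57.5 CPM. The only replication-type H3, *hist2h3c*, was at 9.98 and 12.3 CPM. The only H2B, *hist1h2ba*, had 39 and 36 UMIs (1.04 and 0.899 CPM). Among the identifiers that the symbol rule found, the captured RNA of the 4 core families was far from equal. Nucleosomes hold the 4 proteins in equal number, but captured RNA does not measure protein. Capture of mRNAs without a poly(A) tail may also differ between genes, which was not tested. The sums rest on 21 H4, 17 H2A, 1 H3 and 1 H2B identifiers, and *hist2h2l* is in none of them. Any histone gene under another symbol is not counted, so the sums do not give the level of a whole family.

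Between the libraries, variants summed to a higher level in *MZwnt11f2/slb* and replication-type members to a lower one. The log2 ratio of *MZwnt11f2/slb* to wild type was 0.29 for variants (0.28 to 0.29) and -0.19 for replication-type members (-0.22 to -0.16). The replication-type ratio turned to 0.31 with H2A.X counted on that side, so its direction rests on the grouping. It was also 0.17 (0.06 to 0.27) within enveloping layer-like cells, one of the cell classes described below. Of the replication-type families, only H4 was lower with an interval clear of 0, at -0.46 (-0.50 to -0.43). H2A was at -0.03 (-0.09 to 0.03) and H2B at -0.21 (-0.91 to 0.48), while *hist2h3c* was at 0.30 (0.11 to 0.50) and *hist2h2l* at 1.58. A single H4 copy, ENSDARG00000115281, had 4848 and 2594 of the 19010 and 17851 replication-type UMIs. Among single members, 6 of 53 were at least 2-fold higher in *MZwnt11f2/slb*, where 7.22% of the 13440 genes tested were, and 8 of 53 at least 2-fold lower, where 12.0% were. These counts are not far from the background and do not set histones apart from other genes. The median log2 ratio was -0.09 over the members and -0.10 over all genes, -0.16 over the replication-type members and 0.14 over the variants.

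The leading H3.3 identifier decided most of the variant difference. *h3f3b.1* (ENSDARG00000020504) had 332193 UMIs in wild-type cells and 464208 in *MZwnt11f2/slb*, giving a log2 ratio of 0.38 (0.377 to 0.390). Without it the variants' ratio was 0.15 (0.14 to 0.16). *h3f3d* was nearly level at -0.02 (-0.04 to -0.0031), and so were the second *h3f3b.1* at 0.08 (0.04 to 0.13) and *h3f3c* at 0.10 (0.05 to 0.15). The H2A.Z pair differed in direction, with *h2az2b* at 0.21 (0.20 to 0.22) and *h2az2a* at -0.14 (-0.16 to -0.12). *h1m* (8811 and 13124 UMIs) was at 0.48 (0.44 to 0.51). The linker gene *h1-10* was lower in *MZwnt11f2/slb*, with 270 and 155 UMIs, a log2 ratio of -0.90 (-1.19 to -0.61).

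Of the H2A.X genes, *h2ax* differed by more than *h2ax1*. *h2ax* had 3487 UMIs in wild-type cells and 10036 in *MZwnt11f2/slb*, giving a log2 ratio of 1.43 (1.37 to 1.48), and was seen in 28.7% and 56.4% of cells. *h2ax1* was at 0.47 (0.43 to 0.50). *hist2h2l* (ENSDARG00000068996), the entry after *h2ax1* in the deposited gene list, had 719 and 2300 UMIs and the highest ratio of all members at 1.58 (1.46 to 1.70). The *h2ax* difference was present in each large class of cells, with ratios of 1.29 in ectoderm-like, 1.49 in meso-endoderm-like and 1.73 in enveloping layer-like cells. In the few germ cells-like cells, with 8 and 11 UMIs of *h2ax*, the ratio was -0.16 and its interval (-1.61 to 1.36) spanned both directions.

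Copies of a single symbol differed in opposite directions. Of the 21 *hist1h4l* identifiers, 9 were higher and 12 lower in *MZwnt11f2/slb*, and their log2 ratios ran from -2.14 to 1.35. The split is close to that of all 13440 genes tested, of which 5725 were higher and 7715 lower. The lowest, ENSDARG00000111501, had 70 and 17 UMIs, and ENSDARG00000114534 had 109 and 35, a ratio of -1.74 (-2.33 to -1.18). The highest, ENSDARG00000116781, had 111 and 303 UMIs, and ENSDARG00000105352 had 113 and 251, a ratio of 1.05 (0.73 to 1.39). The largest copy, ENSDARG00000115281, had 4848 and 2594 UMIs, a ratio between -1.07 and -0.93, while ENSDARG00000105409, with 2971 and 3204 UMIs, was level at 0.01 (-0.06 to 0.08). The copies summed to 13713 and 10647 UMIs, a ratio of -0.46 (-0.50 to -0.43). H2A showed the same scatter within a symbol: the 2 identifiers of *hist1h2a10* were at -1.85 (ENSDARG00000105366, 289 and 86 UMIs) and 0.57 (ENSDARG00000112840, 204 and 324 UMIs). The 17 H2A identifiers together were at -0.03 (-0.09 to 0.03).

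**Figure D2:**
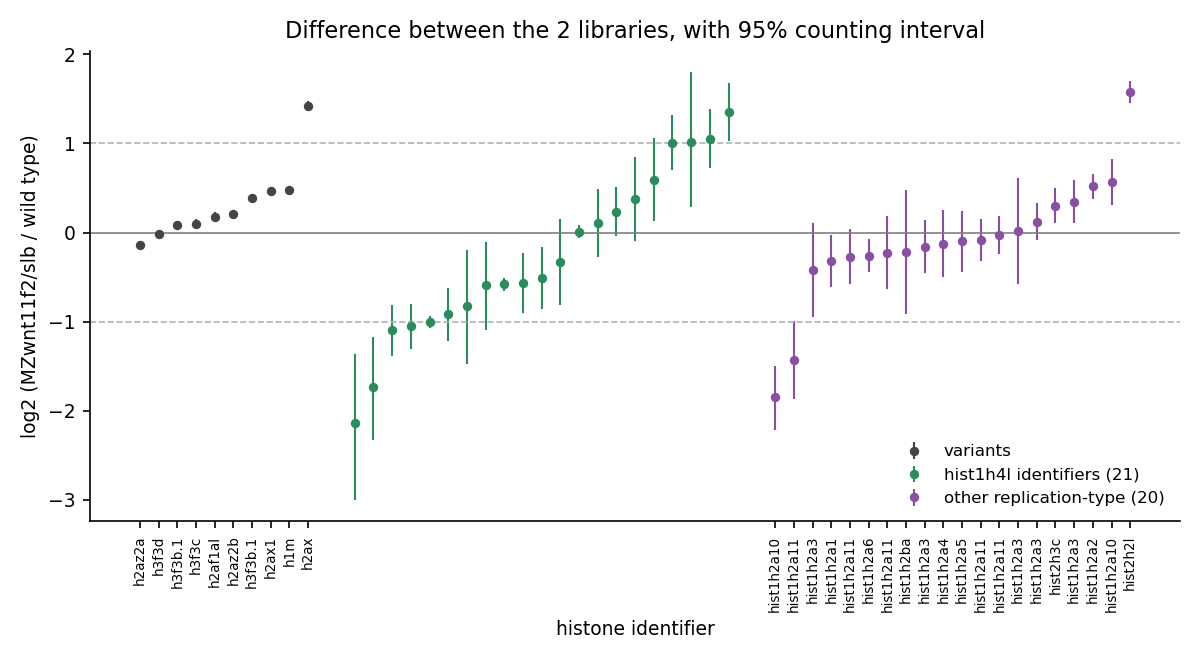
Log2 ratio of *MZwnt11f2/slb* to wild type for the core histone identifiers and *h1m*, each with its 95% counting interval; variants are at left, the 21 *hist1h4l* identifiers (unlabelled) in the middle and the other 20 replication-type members at right, with dashed lines at 2-fold. The *hist1h4l* copies run from -2.14 to 1.35, while most variants lie between -0.14 and 0.48.

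The share of the largest copy in *hist1h4l* UMIs differed between the libraries more than between the large cell classes, which did not hold for every copy. ENSDARG00000115281 gave 35.4% of *hist1h4l* UMIs in wild type (34.5 to 36.2) and 24.4% in *MZwnt11f2/slb* (23.5 to 25.2). In wild type its share was 34.1% in ectoderm-like, 35.7% in meso-endoderm-like and 34.8% in enveloping layer-like cells. In *MZwnt11f2/slb* it was 23.5% in ectoderm-like and 22.5% in enveloping layer-like cells, and 670 of 2677 UMIs (23.4% to 26.7%) in meso-endoderm-like cells. For this copy the intervals of the 3 classes overlapped within a library and did not overlap between libraries. The share of ENSDARG00000111165 in ectoderm-like cells overlapped between libraries (24.0% to 26.2% and 21.9% to 24.6%). The 3 largest copies together differed between classes within *MZwnt11f2/slb*, at 77.0% in ectoderm-like cells (75.6 to 78.3) and 71.2% in enveloping layer-like cells (68.0 to 74.2).

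Cell classes were rebuilt by clustering both libraries together without the members, and named from marker genes. Ectoderm-like cells numbered 4179 in wild-type cells and 3030 in *MZwnt11f2/slb*, meso-endoderm-like cells 2043 and 2134, enveloping layer-like cells (the outer epithelium) 827 and 775, stress-like cells 446 and 235, yolk syncytial layer-like cells 139 and 71, and germ cells-like cells 25 and 28. Another 1203 and 1638 cells stayed unnamed. Some classes were held by different clusters in the libraries: of the ectoderm-like cells, clusters 0 and 1 held 2233 and 1604 wild-type and 554 and 841 *MZwnt11f2/slb* cells, and clusters 5 and 6 held 213 and 129 wild-type and 815 and 820 *MZwnt11f2/slb* cells. Of the enveloping layer-like cells, cluster 9 held 675 wild-type and 0 *MZwnt11f2/slb* cells, and cluster 10 held 1 and 584. The ectoderm-like name is weakly supported. Of 17 ectoderm markers listed, clusters 0, 5 and 6 had 3 each above the other cells, the fewest a name needed, and cluster 1 had 8. Clusters 9 and 10 also had 3 ectoderm markers each, beside 15 enveloping layer markers. The yolk syncytial layer-like cluster had 6 markers of that layer, from a shorter list, and 7 meso-endoderm markers. Its name rests on 2 yolk syncytial layer markers among its top 10 genes. A level in a class was set against all other cells of the same library. A member was counted where it was at least 2-fold apart the same way in both libraries, with at least 10 UMIs seen or expected in the class in each.

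In germ cells-like cells, *h1m* and *h2af1al* were the 2 members of 13 at least 2-fold higher, where 15.2% of the 2796 genes tested were, and 0 members were at least 2-fold lower (5.11% of genes). *h1m* stood at 2165 CPM in these cells against 229 CPM in the other wild-type cells, and at 2934 against 316 CPM in *MZwnt11f2/slb*. The log2 differences were 3.24 (3.06 to 3.42) and 3.22 (3.09 to 3.34). *h2af1al* stood at 1209 against 138 CPM in wild type and 1709 against 152 CPM in *MZwnt11f2/slb*, log2 differences of 3.14 (2.89 to 3.37) and 3.49 (3.33 to 3.66). The class was named from 7 of 8 germ cell markers, which together took 27273 and 32768 CPM in it and 294 and 282 CPM elsewhere.

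The single cells showed how these levels were spread. *h1m* was seen in 25 of 25 such wild-type cells and 28 of 28 in *MZwnt11f2/slb*, with a lowest value of 5.82, a median of 23.0 and a highest of 43.7 per 10000 UMIs in wild type, and 8.37, 28.9 and 48.8 in *MZwnt11f2/slb*. The median of the other cells was 1.83 and 2.57, and 21 and 25 of the germ cells-like cells lay above their 99th percentile. *h2af1al* was more uneven, with a median of 11.0 and 12.2 per 10000 UMIs, a highest of 63.9 and 55.8, and 14 and 17 cells above the 99th percentile of the others. *h1m* RNA was not limited to these cells: 55.7% and 70.9% of the other cells had at least 1 UMI of it (median depth 3874 and 4592 UMIs, against 3764 and 6622 in germ cells-like cells). Nor was *h2af1al*, seen in 39.7% and 47.6% of the other cells. Free RNA in the droplets could add to such low counts and was not tested.

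The genes whose cell-to-cell pattern was most like *h1m* were *tdrd7a*, *nanos3*, *dnd1*, *ca15b* and *ddx4*. All of them are on the germ cell marker list used to name the class, so the ranking adds no independent support. This ranking was over the 5575 genes with at least 500 UMIs in each library, by the lower of the 2 correlations of depth-corrected counts across cells. *tdrd7a*, a germ granule gene, had r = 0.40 in wild-type cells and 0.51 in *MZwnt11f2/slb*. *dnd1*, which protects germ cell mRNAs, led the list for *h2af1al* with r = 0.37 and 0.57. Between *h1m* and *h2af1al* r was 0.23 and 0.40 over all cells, and 0.11 and 0.15 without the germ cells-like cells. Cells of a library share its depth and ambient RNA, so these values describe the libraries.

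The leading H3.3 gene, *h3f3d* and *h2az2b* were lower in germ cells-like cells, and *h2az2a* was not. *h3f3b.1* (ENSDARG00000020504) stood at 4984 against 8902 CPM in wild type and 6689 against 11621 CPM in *MZwnt11f2/slb*, log2 differences of -0.84 (-0.95 to -0.72) and -0.80 (-0.88 to -0.72). *h3f3d* was at -0.66 in both libraries and *h2az2b* at -0.56 and -0.54. *h2az2a* was level, at 0.11 (-0.12 to 0.32) and -0.01 (-0.20 to 0.19). For *hist1h4l*, summed, 65 and 36 UMIs gave 0.54 (0.16 to 0.89) in wild type and -0.47 (-0.99 to -0.0041) in *MZwnt11f2/slb*, so the libraries do not agree on a direction. Counts in 25 and 28 cells set the limit here.

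In enveloping layer-like cells most histones were lower, and so were most genes tested. Of 41 members with enough UMIs, 31 were below the other cells in both libraries and 1 above them. The share of all genes below or above in both is not given here, so this count does not set histones apart. At least 2-fold lower were 3 members (18.7% of the 10235 genes tested), and 0 were at least 2-fold higher (10.6%). The median log2 difference over the members was -0.69 in wild type (all genes tested -0.55) and -0.47 in *MZwnt11f2/slb* (-0.49), so a low level in this class was common to most genes. The enveloping layer marker genes took 91175 and 80874 CPM in the class, and their part in the lower histone CPM was not tested. The 3 members past 2-fold were H2A identifiers of low count: *hist1h2a1* (10 and 11 UMIs in the class, log2 differences -1.57 and -1.21), *hist1h2a4* (7 and 7, -1.21 and -1.20) and *hist1h2a11* (ENSDARG00000105444, 9 and 10, -1.51 and -1.18).

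Larger counts give the size of the difference more closely. *h3f3b.1* (ENSDARG00000020504) was at 4691 against 9493 CPM in wild type and 6508 against 12336 CPM in *MZwnt11f2/slb*, log2 differences of -1.02 and -0.92 (-0.94 to -0.91). *h3f3d*, the same kind of histone, was level at 1252 against 1290 CPM and 1277 against 1265 CPM, differences of -0.04 and 0.01. *h2ax* was at 40.7 against 101 CPM and 135 against 268 CPM, differences of -1.31 and -0.99. *h2az2b* was at -0.56 and -0.68 and *h2az2a* at -0.53 and -0.51. *hist1h4l*, summed, was at 207 against 390 CPM and 168 against 280 CPM, differences of -0.92 (-1.01 to -0.82) and -0.74 (-0.84 to -0.63). The sums of the 24 S-phase and 26 G2/M genes, lists of genes that peak in those phases of the cell cycle, were lower in the same cells: -1.22 and -0.95 for S phase, -1.09 and -0.82 for G2/M. Their part in the histone result was not tested.

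**Figure D3:**
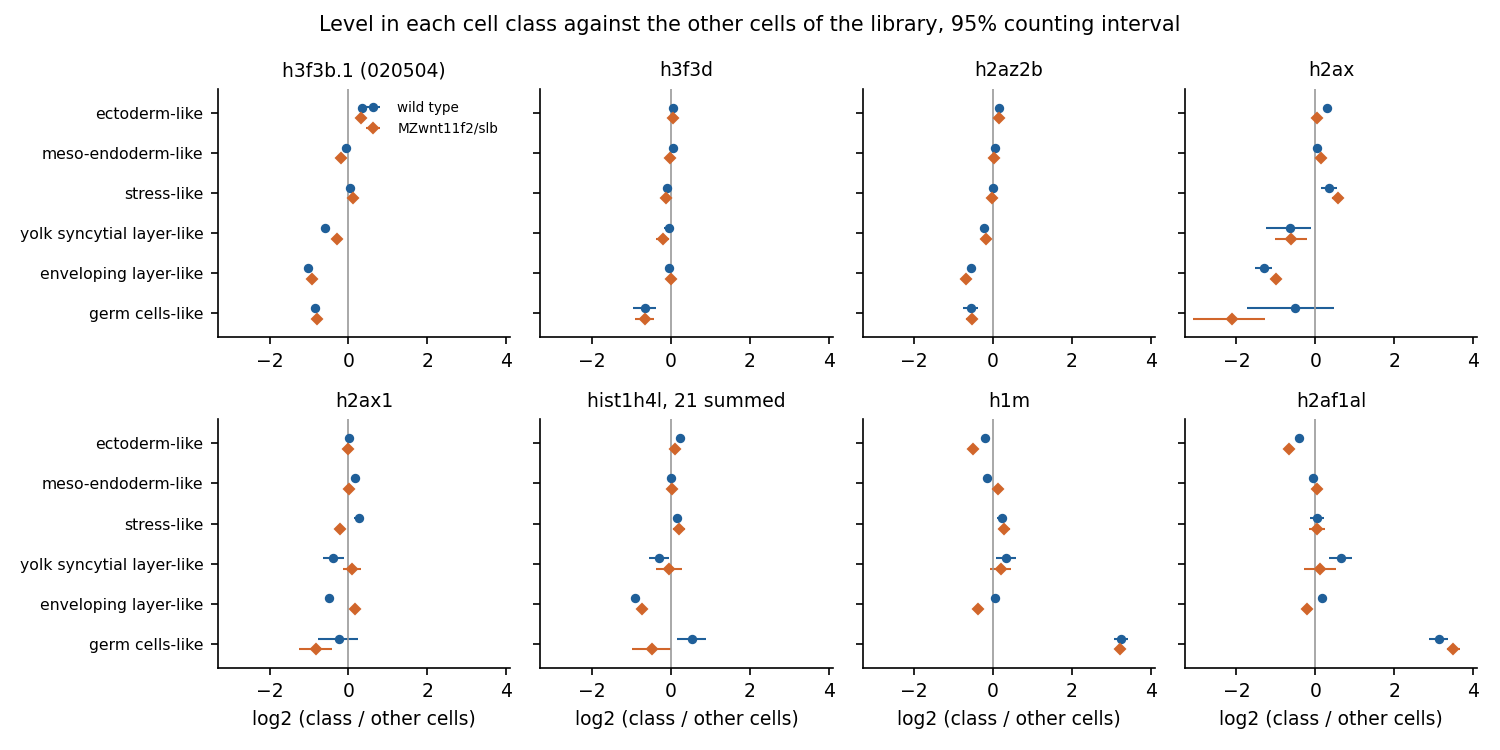
Log2 ratio of the level in each cell class to the level in all other cells of the same library, with 95% counting intervals, for 8 histone units (wild type circles, *MZwnt11f2/slb* diamonds). *h1m* and *h2af1al* stand above 3 in germ cells-like cells alone among the 6 classes drawn, and *h3f3b.1* (ENSDARG00000020504) and *hist1h4l* are lowest in enveloping layer-like cells.

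In the other classes no member was past 2-fold in both libraries. This held for 52 members in ectoderm-like cells (8.32% of genes tested were past it), 49 in meso-endoderm-like (7.55%), 20 in stress-like (6.53%) and 14 in yolk syncytial layer-like cells (10.2%). Smaller differences were seen in ectoderm-like cells, where *h3f3b.1* (ENSDARG00000020504) was at 10091 against 8017 CPM in wild type and 13401 against 10727 CPM in *MZwnt11f2/slb*. *h1m* and *h2af1al* were lower there, with log2 differences of -0.21 and -0.51 for *h1m* and -0.42 and -0.67 for *h2af1al*. Replication-type members summed to 552 and 468 CPM in ectoderm-like cells, 517 and 455 CPM in meso-endoderm-like cells, 562 and 492 CPM in stress-like cells, 744 and 421 CPM in germ cells-like cells, 419 and 443 CPM in yolk syncytial layer-like cells and 297 and 334 CPM in enveloping layer-like cells.

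The share of UMIs taken by *hist1h4l* varied with the total UMIs of a cell more than that of the variants' sum did. Cells of each library were ranked by total UMIs and split into 5 bins of equal size, from a median of 2261 UMIs to 6539 in wild type and from 2689 to 7623 in *MZwnt11f2/slb*. From the lowest to the highest bin, *hist1h4l* was at 2.40, 2.94, 3.79, 4.28 and 3.90 per 10000 UMIs in wild type. In *MZwnt11f2/slb* it was at 2.03, 2.5, 2.80, 2.98 and 2.64. Both series were highest in bin 4 and lower in bin 5, and the highest bin was 1.78-fold and 1.47-fold above the lowest. Each of the 3 largest copies had its lowest level in bin 1 and its highest in bin 4 in both libraries.

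The replication-type sum ranged over 1.55-fold and 1.27-fold. Replication-type H2A varied less, between 0.995 and 1.23 per 10000 UMIs in wild type and between 0.986 and 1.17 in *MZwnt11f2/slb*. The variants summed to between 150 and 161 per 10000 UMIs in wild type and between 187 and 192 in *MZwnt11f2/slb*, a range of 1.07-fold and 1.03-fold. Single variants differed from their sum in wild type: *h1m* was lowest in bin 1 (2.12) and highest in bin 5 (2.51), *h3f3b.1* (ENSDARG00000068434) likewise (1.84 and 2.13), and *h3f3d* was highest in bin 1 (14.2). *h2ax* ranged over 1.33-fold there, from 0.743 in bin 1 to 0.988 in bin 3, more than replication-type H2A (1.23-fold). In *MZwnt11f2/slb* it ranged over 1.07-fold. Other features moved along the same ranking. Enveloping layer-like cells made up 2.26% of bin 1 and 21.3% of bin 5 in wild type, where mitochondrial UMIs made up 8.64% and 4.42%. In *MZwnt11f2/slb* these shares were 4.55% and 20.4%, and 10.4% and 4.90%. Their part in the *hist1h4l* series was not tested.

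**Figure D4:**
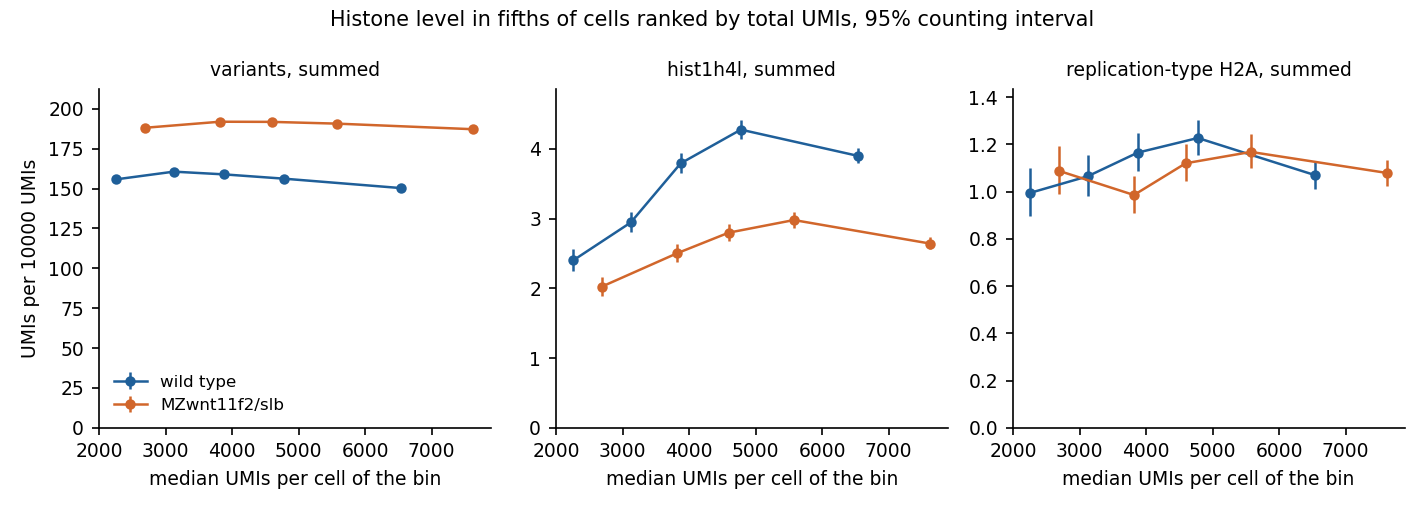
Level in UMIs per 10000 UMIs (y axes start at 0) of variants, *hist1h4l* and replication-type H2A in 5 equal bins of cells ranked by total UMIs, plotted at the median total of each bin with 95% counting intervals, 1 line per library. The variant lines are nearly flat at 150 to 161 and 187 to 192, while *hist1h4l* climbs from 2.40 to 4.28 in wild type and from 2.03 to 2.98 in *MZwnt11f2/slb*.

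Over all cells, cell-to-cell spread separated the variants into steady and uneven genes. Spread is given as the excess squared coefficient of variation (CV), the variance between cells left after the counting noise that a cell's total UMIs predicts, divided by the squared mean. It is 0 for a gene that takes the same share of every cell. Of the 13 members with at least 5000 UMIs, a minimum chosen after the values were seen, 9 exceeded in both libraries the median of genes whose UMIs lay within 2-fold of their own. About 50% of genes exceed such a median in a library by definition. The share of all genes that exceed it in both libraries is not given here, so the count does not set histones apart. Among the 9, *h3f3b.1* (ENSDARG00000020504) ranked near it, at 50% and 58% of its like genes, and *h2az2b* at 55% and 58%. *h3f3d* had 0.021 in wild-type cells and 0.010 in *MZwnt11f2/slb*, where its like genes had medians of 0.033 and 0.034. *h3f3c* had 0.044 and 0.050 against 0.106 and 0.099, and *h3f3b.1* (ENSDARG00000068434) 0.045 and 0.036 against 0.088 and 0.084. These 3 H3.3 genes were below their like genes in both libraries over all cells. Within ectoderm-like cells *h3f3d* had 0.022 and 0.018 against 0.023 and 0.024. There *h3f3c* had 0.043 against 0.073 in wild type but 0.088 against 0.082 in *MZwnt11f2/slb*. *h3f3b.1* (ENSDARG00000068434) had 0.014 against 0.061 in wild type but 0.075 against 0.065 in *MZwnt11f2/slb*. Cells with no UMI of *h3f3b.1* (ENSDARG00000068434) made up 46.2% and 38.1%, where counting noise alone gives 45.4% and 37.3%.

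Over all cells the leading H3.3 identifier was different from these 3. *h3f3b.1* (ENSDARG00000020504) had 0.068 and 0.066 over all cells, against medians of 0.060 and 0.051 in only 12 like genes, and 0.020 and 0.017 within ectoderm-like cells, against 0.019 and 0.019. *h2az2b* had 0.031 and 0.037 over all cells, against 0.028 and 0.031, and 0.015 and 0.011 within ectoderm-like cells, against 0.018 and 0.022. The spread of both genes was smaller within ectoderm-like cells, and so was that of their like genes.

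*h2ax*, *h2ax1*, *h1m* and *h2af1al* were uneven. *h2ax* had an excess spread of 0.58 and 0.77, where like genes had 0.097 and 0.094. In *MZwnt11f2/slb*, 43.6% of cells had no UMI of *h2ax* and 5.54% had 5 or more, where counting noise gives 32.0% and 2.19%. Within ectoderm-like cells its spread was 0.59 and 0.83, as large as over all cells. *h2ax1* had 0.45 and 0.19, and within ectoderm-like cells 0.37 and 0.20. The spread of the genes higher in germ cells-like cells was smaller within ectoderm-like cells. *h2af1al* had 0.73 and 1.55 over all cells and 0.16 and 0.12 within ectoderm-like cells, and *h1m* 0.40 and 0.65 against 0.18 and 0.17. Within ectoderm-like cells, like genes had medians of 0.065 and 0.072 for *h2ax* and 0.042 and 0.045 for *h2ax1*. For *h1m* they had 0.051 and 0.053, and for *h2af1al* 0.071 and 0.080. Each of these genes thus stayed above its like genes within the class. The spread of *h1m* and *h2af1al* was smaller there than over all cells in both libraries, and that of *h2ax* was not.

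The 3 largest *hist1h4l* copies had 0.38, 0.41 and 0.49 in wild type and 0.66, 0.20 and 0.32 in *MZwnt11f2/slb* (ENSDARG00000115281, ENSDARG00000105409 and ENSDARG00000111165), each above its like genes. Larger excesses came with genes seen in few cells, such as *h1-10* with 12.1 and 18.8 and *hist1h4l* ENSDARG00000105352 with 4.85 and 3.62. Their like genes had medians of only 0.70 and 0.79 for *h1-10*, and 0.78 and 0.87 for ENSDARG00000105352. *h1-10* was seen in 2.51% and 1.59% of cells, with up to 5 and 4 UMIs in a cell, so its value rests on few cells.

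**Figure D5:**
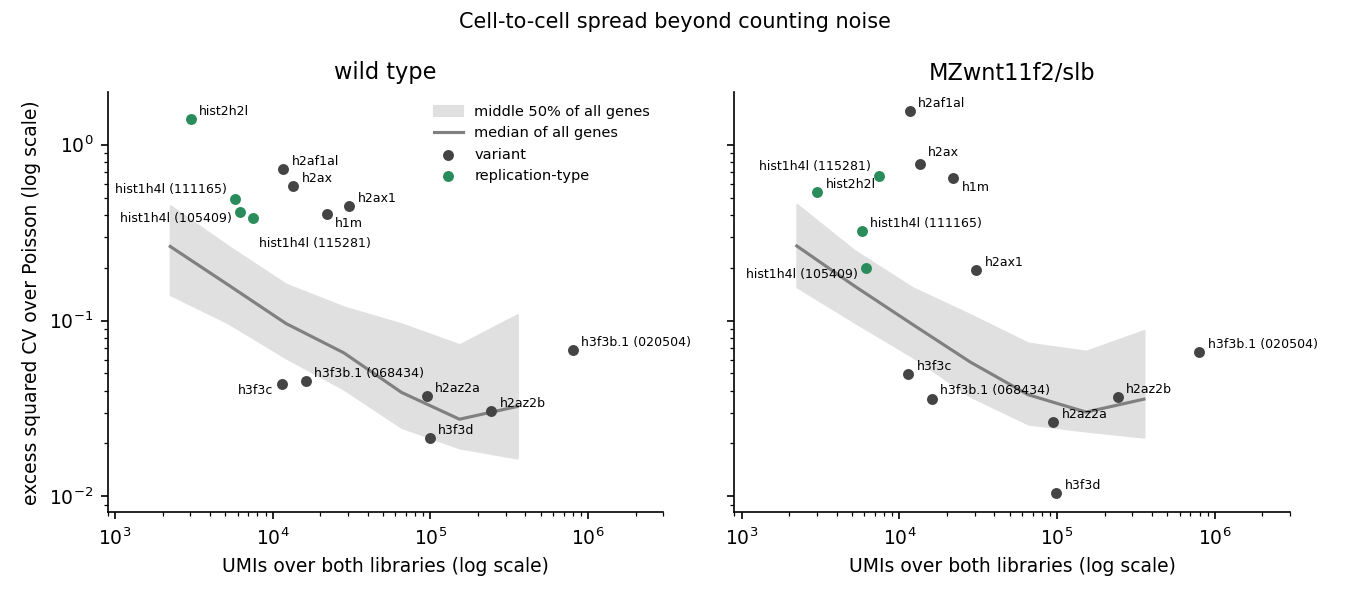
Excess squared CV over counting noise (log axis) against UMIs over both libraries (log axis) for members with at least 2500 UMIs, 1 panel per library, with the median (line) and middle 50% (band) of all genes. *h3f3d*, *h3f3c* and *h3f3b.1* (ENSDARG00000068434) lie below the line in both panels, and *h2ax*, *h2ax1*, *h1m*, *h2af1al* and *hist2h2l* above the band.

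Replication-type RNA was only loosely tied to the cell cycle genes across cells. The correlation of its depth-corrected sum with that of the 24 S-phase genes was 0.19 over 8862 wild-type cells and 0.11 over 7911 *MZwnt11f2/slb* cells, and 0.09 and 0.05 without enveloping layer-like cells. With the G2/M genes it was 0.20 and 0.13. In sparse counts such values are no more than a description. Ranked by the S-phase sum, without enveloping layer-like cells, bin 1 of 5 had 347 CPM of *hist1h4l* in wild type and bin 5 had 432 CPM, a log2 difference of 0.32 (0.24 to 0.40). In *MZwnt11f2/slb* these bins had 264 and 312 CPM, a difference of 0.24 (0.15 to 0.33). By the G2/M sum the differences were 0.40 and 0.45. Bin 5 also held more UMIs per cell, with medians of 4040 against 3453 by the S-phase sum in wild type and 4759 against 4225 in *MZwnt11f2/slb*, and the part of depth was not tested. Replication-type H2A gave 0.23 (0.08 to 0.37) by the S-phase sum in wild type and -0.05 (-0.20 to 0.09) in *MZwnt11f2/slb*.

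*h3f3b.1* (ENSDARG00000020504) and *h2az2b* varied with the cell cycle genes over all cells and less within ectoderm-like cells, while other abundant variants differed from them. *h3f3b.1* (ENSDARG00000020504) had r = 0.41 and 0.49 with the S-phase genes over all cells, 0.08 and 0.18 without enveloping layer-like cells, and -0.03 and 0.01 within ectoderm-like cells. *h2az2b* had 0.26 and 0.38, then 0.06 and 0.14, then 0.03 and 0.10. Over all cells *h2az2a* had 0.17 and 0.20, and *h3f3d* 0.0032 and 0.027. The pair *h3f3b.1* and *h2az2b* had 0.30 and 0.44 over all cells and 0.09 and 0.11 within ectoderm-like cells. *h2ax1* and *hist2h2l* had 0.15 and 0.16 over all cells and 0.10 and 0.13 within ectoderm-like cells, and *hist2h2l* was the gene most like *h2ax1* of the 5575 ranked.

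The genes that process histone mRNA and carry histones showed no member past 2-fold between the libraries, 0 of 9 and 0 of 27, where 7.22% of all genes were higher and 12.0% lower. Of 11 listed processing genes, 9 had at least 50 UMIs and their median log2 ratio was -0.11. *slbp*, which binds the stem-loop of replication-type histone mRNAs, was level at 545 and 534 CPM, a ratio of -0.03 (-0.06 to -0.00037). *slbp2*, its oocyte paralogue, had 236 and 234 UMIs. The lowest ratio was that of *eri1*, an exonuclease that trims the stem-loop end, at -0.60 (-0.75 to -0.44). Of 32 listed chaperones and deposition factors 27 had enough UMIs, 11 above and 16 below 0, with a median of -0.08. Of all genes tested, 5725 were above and 7715 below 0, a similar split. *supt16h*, a subunit of the FACT complex, had the highest ratio at 0.72 (0.68 to 0.75), and *chaf1a*, which brings H3 and H4 to new DNA, was at 0.50 (0.47 to 0.54). *hira*, the chaperone of H3.3, was at 0.46 (0.33 to 0.59) and *daxx*, another H3.3 chaperone, at -0.44 (-0.53 to -0.35). *anp32e*, which removes H2A.Z, was at 2313 and 2395 CPM.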

How the data were processed

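The authors dissociated and fixed whole embryos with ACME, sorted DAPI-stained cells, made Chromium 3′ v3.1 libraries and ran Cell Ranger. The submitters' processing notes name version 6.1.1 and the GRCz11 build; the paper's methods name another version. The annotation release and the treatment of intronic reads are not stated in the sources read. The deposited values are raw UMI counts per gene and cell, without normalization, and every deposited barcode was kept. The members and all gene lists were chosen with earlier results of these data known.

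Counts were divided by library or class totals (CPM). Log2 ratios carry exact conditional 95% intervals of 2 Poisson counts, and shares exact binomial intervals. PCR and cell sampling are not covered. Cells were clustered without the members (30 principal components of log10 values over genes seen in at least 10 cells, residuals on log10 UMIs, centred by library, 20 neighbours, Leiden, resolution 1, seed 0). This gave 17 clusters, of which 14 were named by 3 or more markers, each at 10 or more UMIs and 1.5-fold or more over the other cells, with no rival class ahead among the top 10 genes of at least 50 UMIs. Names are rebuilt and may differ from the study's. Doublets were not removed. Correlations use (count − expected) / √expected, with expected counts proportional to a cell's total.

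Named members are the 8 with most UMIs, the 3 highest and 3 lowest library ratios, the 3 largest excess spreads, the 3 largest class differences, and at least 1 of each family and variant kind; 1 member that the rule names is not reported here. The other members named, and the processing and chaperone genes given with values, were chosen after their values were seen. Genes were matched by the symbols of the deposited list, where 548 symbols have more than 1 identifier. Promoter, protein and genome sequences were not used here.

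Intervals were tried on simulated Poisson counts, which hold no cell or PCR variance. Spread was tried on simulated counts with higher means than most replication-type members have, so it was not checked at their level. The alternatives tried were other scalings, cell filters, thinning to 2944 UMIs (2215 and 1055 cells left out), minimums, folds, bins, cluster settings and the grouping of H2A.X. Python 3.11.15, numpy 2.4.6, scipy 1.17.1 and leidenalg 0.10.2 were used.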

Additional observations from a re-analysis of the deposited data

Results flagged for a closer look

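Differences between classes or libraries that point in opposite directions, each with a counting interval clear of 0, were found for a few members; with 1 library per genotype none of them was tested, and many member and class pairs were compared. *h2ax1* in enveloping layer-like cells was below the other cells in wild type (log2 ratio -0.48, -0.57 to -0.40) and above them in *MZwnt11f2/slb* (0.16, 0.10 to 0.22). In stress-like cells *h2ax1* was at 0.26 (0.15 to 0.36) in wild type and -0.22 (-0.35 to -0.08) in *MZwnt11f2/slb*. *h2af1al* in enveloping layer-like cells was at 0.18 (0.07 to 0.29) and -0.22 (-0.33 to -0.10). In meso-endoderm-like cells *h1m* was at -0.14 (-0.22 to -0.07) in wild type and 0.13 (0.07 to 0.18) in *MZwnt11f2/slb*, and *h3f3b.1* (ENSDARG00000068434) at -0.13 (-0.22 to -0.05) and 0.077 (0.0061 to 0.15). The enveloping layer-like class is held by different clusters in the libraries.

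The library ratio of *h2af1al* was 0.24 (0.13 to 0.35) in meso-endoderm-like and 0.50 (0.21 to 0.79) in germ cells-like cells, and -0.17 (-0.33 to -0.02) in enveloping layer-like cells. That of *hist1h2a11* (ENSDARG00000100906) was -0.46 (-0.82 to -0.12) in ectoderm-like and 0.99 (0.21 to 1.81) in enveloping layer-like cells, the last on 21 and 45 UMIs.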

How the results depend on the processing

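Under the alternatives, the replication-type log2 ratio between libraries kept its sign except with H2A.X counted as replication-type, where it was 0.31 (variants then 0.27). It was -0.091 with median-of-ratios scaling, -0.15 as a mean over cells and -0.23 in thinned cells. The variant ratio was 0.39 with median-of-ratios scaling, which shifts all ratios by 0.10, 0.28 as a mean over cells, 0.28 without the 5% of cells with the most UMIs and 0.27 with clusters weighted by their wild-type UMI shares. The members at least 2-fold lower in *MZwnt11f2/slb* ranged from 5 with median-of-ratios scaling to 9 in thinned cells, and 12 were at least 1.5-fold lower. Those at least 2-fold higher stayed between 4 and 6, and 7 were at least 1.5-fold higher. The replication-type share of histone UMIs was 3.26% and 2.37% after removal of cells under 1000 UMIs or over 10% mitochondrial UMIs, 5.82% and 5.94% with H2A.X moved, and 2.33% in *MZwnt11f2/slb* without the 5% of cells with the most UMIs. At 1.5-fold, 15 members were lower in enveloping layer-like and 3 in germ cells-like cells; the 2-fold counts were the same at both other resolutions, with the members kept in the clustering and without centring by library. The correlation of replication-type RNA with S-phase genes was 0.093 and 0.046 without enveloping layer-like cells. Added after the data were seen were ratios within classes for *h2ax*, *hist2h2l*, *h3f3b.1* (ENSDARG00000020504), *h1m* and *hist1h4l*, where that of *h2ax* in germ cells-like cells was -0.16 and the others kept their sign, the spread within ectoderm-like cells and the germ cells-like values without the 5% of cells with the most UMIs, where *h1m* was at 3.39 and 3.15 and *h2af1al* at 3.35 and 3.07. No paired analysis was possible because each genotype has 1 library. Single *hist1h4l* copies and classes of few cells are limited by their counts.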

Other observations

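Beyond the members, *histh1l*, a linker histone by name, had 6501 UMIs in wild-type cells and 5690 in *MZwnt11f2/slb*, giving a log2 ratio of -0.29 (-0.34 to -0.24). The macroH2A genes were at -0.96 (-1.11 to -0.80) for *macroh2a2*, with 972 and 536 UMIs, and 0.31 (0.09 to 0.52) for *macroh2a1*, with 314 and 416 UMIs. The genes whose cell-to-cell pattern was most like that of the replication-type sum were led by *AL935186.10* (r = 0.24 and 0.20) and *zgc:153409* (0.24 and 0.17). Next came *nop56*, a nucleolar gene (0.21 and 0.16), *mki67*, a marker of cycling cells (0.25 and 0.16), and *ctcf* (0.19 and 0.15).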
